A study of Mus musculus with 39 samples.

Results

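The arrays of 39 mouse lungs were sorted by their signal for Ucp1, uncoupling protein 1, the defining gene of brown fat, and the lungs with a clear Ucp1 signal were set against the lungs without one. The members were chosen by the measured Ucp1 signal itself. An array counted as Ucp1-high where log2 of the deposited signal of the Ucp1 probe set was 5 or more, and as Ucp1-low where it was below 3. By this rule 16 of 39 arrays were high and 20 were low, and 3 lay between and entered neither class. Each array measured the lung of 1 female Crlj:CD1(ICR) mouse, so errors and p-values describe the spread between animals. The mice had eaten powdered diet with isoniazid at 2500 ppm, or with permethrin at 0 (control), 5000 or 10000 ppm, and all diets were given for 7 or 14 days. Every group held 5 animals except permethrin 10000 ppm at 14 days, which held 4. Mice fed for 14 days were 12 weeks old and mice fed for 7 days were 11 weeks old, so the effects of age and of feeding time cannot be told apart. The labels name the tissue only as lung, and no source used here says what lay around it when it was taken.

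Brown fat burns fatty acids to make heat. Its cells hold many small lipid droplets and dense mitochondria, and Ucp1 lets protons leak back across the inner mitochondrial membrane so that respiration releases heat in place of ATP. Lung cells are not known as a source of Ucp1, whereas brown fat depots of the mouse lie in the chest and between the shoulder blades. Genes such as Cidea, Cox8b, Elovl3, Dio2, Ppargc1a and Prdm16 are used together with Ucp1 to recognise brown fat, while Adipoq, Fabp4 and the lipid droplet proteins are shared by fat cells of every kind.

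The platform carried 1 probe set for Ucp1, and its values chose the classes, so its levels are given as a description, with no test of Ucp1 between the classes. On the log2 scale of the deposited signal, Ucp1 ran from 5.13 to 8.76 with a median of 6.31 in the 16 high arrays, and from -1.39 to 2.59 with a median of 0.92 in the 20 low arrays. The 3 arrays between stood at 4.73, 4.48 and 3.40. Just inside the upper limit lay control 7 days replicate 4 at 5.13, and just below the lower limit lay isoniazid 14 days replicate 3 at 2.59. The highest array, permethrin 10000 ppm 14 days replicate 2, had a deposited signal of 434. The plot of Ucp1 by diet and time shows the classes far apart in most groups, with only the 3 arrays in the gap.

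**Figure D1:**
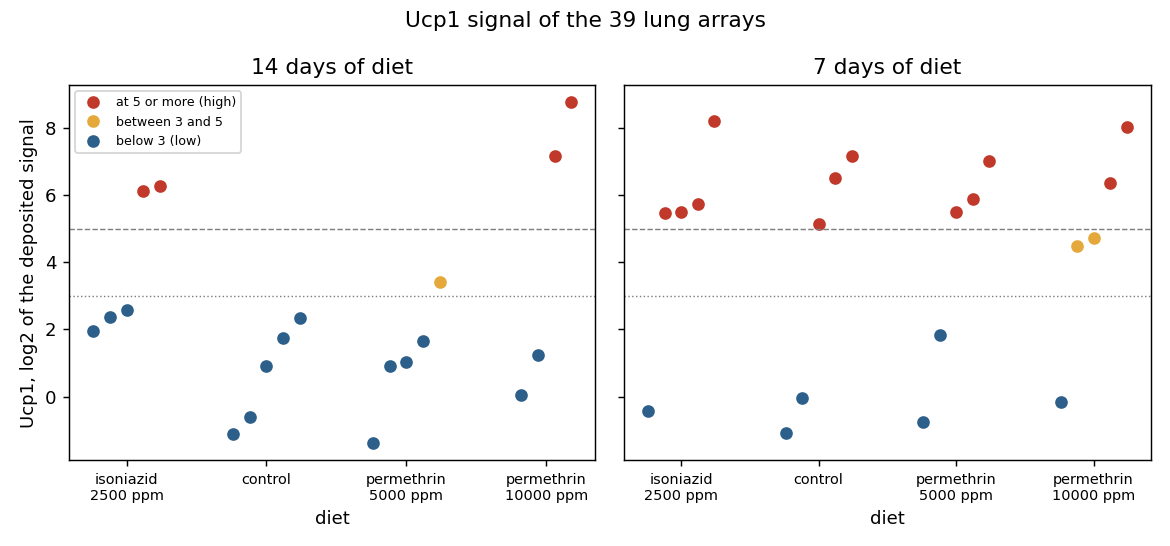
Log2 of the deposited Ucp1 signal of each of the 39 arrays (points) by diet, in the 14-day groups (left) and 7-day groups (right). Dashed and dotted lines mark the limits of 5 and 3. High arrays occur in 6 of the 8 groups and are missing from control and permethrin 5000 ppm at 14 days.

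High arrays were spread over diets and both times, but not evenly. At 14 days they made up 2 of 5 isoniazid lungs, 0 of 5 control lungs, 0 of 5 lungs at permethrin 5000 ppm and 2 of 4 lungs at permethrin 10000 ppm. At 7 days they made up 4 of 5 isoniazid lungs, 3 of 5 control lungs, 3 of 5 lungs at permethrin 5000 ppm and 2 of 5 lungs at permethrin 10000 ppm. The class thus held 4 of 19 lungs at 14 days and 12 of 20 lungs at 7 days, a difference that missed the threshold of 0.05 after adjustment over 3 comparisons (two-sided Fisher's exact test, p = 0.0225, adjusted p = 0.0674). Permethrin and control lungs were high in 7 of 19 and 3 of 10 cases (exact p = 1, adjusted p = 1), and isoniazid and control lungs in 6 of 10 and 3 of 10 cases (exact p = 0.370, adjusted p = 0.555). With the 3 arrays between counted as high, the share at 14 days was 43.7 percentage points lower than at 7 days, and this passed (Fisher's exact test, adjusted p = 0.0312). The 2 groups without a high array were both 14-day groups, so treatment and day were kept as factors in the comparison of genes between the classes.

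For all other genes the arrays were quantile normalized on the log2 scale, and all levels below are log2 normalized signal unless named otherwise. A limma model with treatment, day and Ucp1 class was fitted to 13020 genes, each represented by its brightest probe set, in the 36 high and low arrays. At an adjusted p of 0.05 (Benjamini-Hochberg over all 13020 genes), 23 genes were higher in the high arrays (0.177% of genes tested) and 1 was lower (0.00768%). At an unadjusted p of 0.05, 1234 genes passed. Of the 23 higher genes, 22 were higher on average within each of the 6 groups that hold both classes, and the exception was Cox4i1. The genes were called on these same arrays with treatment and day as factors, so this direction was largely fixed by the selection. No gene tested had all high arrays above all low arrays, so every level overlapped between the classes.

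The count of 23 depended on which arrays and covariates entered. With the 8 groups as terms in place of treatment and day, the count was 16, all among the 23. Leaving out single arrays gave 13 to 34 higher genes, and 4 of these fits moved it by more than 1.5 times. The count was 13 when replicate 2 of permethrin 10000 ppm at 14 days was left out. It was 15 when replicate 4 of that group, replicate 4 of permethrin 10000 ppm at 7 days or replicate 1 of isoniazid at 14 days was left out. A Gapdh 3' to 5' log2 ratio above 0.7, a sign of RNA degradation, occurred in 6 arrays (2 high and 4 low). All 6 were 14-day arrays, and the 2 high ones were among the 4 high arrays of that time. Leaving out these 6 arrays left 5 higher genes, of which 4 were among the 23. The direction of the 24 called genes was the same in this and in the 9 other alternatives for which it was compared. These fits reuse arrays on which the genes were called, so the direction was largely fixed by the selection.

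Of the thermogenic brown fat genes, Cidea and Cox8b followed Ucp1, and most of the others did not pass the test. Cidea, a lipid droplet protein abundant in brown fat, ran from 5.40 to 8.37 with a median of 6.46 in the high arrays, and from 3.04 to 6.50 with a median of 4.84 in the low arrays. All 16 high arrays lay above the median of the low arrays, but 3 of 20 low arrays reached the lowest high array. The log2 fold change of Cidea, 1.85 (SE 0.30, a fold of 3.61), had the smallest p of all genes tested, with an adjusted p of 0.00425 (limma). Within the 6 groups that hold both classes, the difference for Cidea ran from 1.26 in isoniazid lungs at 7 days to 2.28 in lungs at permethrin 10000 ppm at 14 days.

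Cox8b, a subunit isoform of cytochrome c oxidase used by muscle and brown fat, ran from 7.34 to 9.29 with a median of 7.80 in the high arrays, and from 5.33 to 7.68 with a median of 6.96 in the low arrays. Its high arrays all exceeded the median of the low arrays, and 10 of 16 exceeded every low array. The log2 fold change was 1.21 (SE 0.23, limma adjusted p = 0.0116). Elovl3, a fatty acid elongase of brown fat, stood at a median of 4.33 in the high arrays (2.19 to 5.64) and 3.23 in the low arrays (2.25 to 4.05), with a log2 fold change of 0.97 (SE 0.24) that missed the threshold (limma adjusted p = 0.1005). Its means of 4.23 in the high and 3.19 in the low arrays lie on either side of the filter of 3.43, so it was tested only through the high arrays. Elovl3 was called in 4 alternatives, with the smallest limma adjusted p, 0.00844, without treatment and day terms. Cox7a1, another muscle and brown fat isoform of the same enzyme, had a log2 fold change of 0.75 (SE 0.23, limma adjusted p = 0.238). Its high arrays also all lay above the median of the low arrays.

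Ppargc1a, Dio2 and Prdm16 did not pass the test, and some other regulators of the brown fat programme were too dim to be tested. Ppargc1a, a coactivator of mitochondrial biogenesis, had a log2 fold change of 0.24 (SE 0.15, limma adjusted p = 0.606). For Dio2, the enzyme that activates thyroid hormone, it was 0.25 (SE 0.17, limma adjusted p = 0.637), and for Prdm16, a transcriptional regulator of brown fat identity, -0.15 (SE 0.09, limma adjusted p = 0.596). The dimmer Prdm16 probe sets gave 0.12, 0.50 and -0.19. Levels of these 3 genes overlapped widely, with medians of 5.97 and 5.44 for Dio2, 5.25 and 4.93 for Ppargc1a, and 6.75 and 6.88 for Prdm16 in high and low arrays. The brown fat transcription factors Zic1 and Lhx8 were below the filter on low signal, with high-array medians of 0.04 and 0.28 and low-array medians of 1.58 and -1.06. Ebf2, a further brown fat transcription factor, was also below the filter and got no test. Its range lay higher in the high arrays, at 3.22 to 4.62, than in the low arrays, at -0.89 to 3.85. Adrb3, the receptor through which noradrenaline activates brown fat, had no probe set naming it alone. Over the whole list of 34 brown fat genes, 25 were tested, of which 2 were higher and 0 lower (0.177% and 0.00768% over all genes). The median log2 fold change was 0.20 for the list, against 0.01 over all genes tested, and 23 of 25 were above 0. Apart from Ucp1, which chose the classes, the name brown fat is thus matched by 2 called genes of 25 tested, of which Cox8b is also a muscle gene. The cardiac muscle list had as many genes above 0, 23 of 25, and a larger median of 0.46. Neither measure is therefore particular to the brown fat list.

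The start regions of Ucp1, Cox8b and Cidec are shown because these genes tracked each other over the arrays and their windows hold at least 1 of the motifs searched. RefSeq windows (build GRCm38.p6) were available for 15 of the 24 called genes. Matches to each of 5 motifs, on both strands, are in capitals. The nuclear receptor half-site was searched as AGGTCA, and the DR1 element as a pair of these half-sites spaced by 1 base, so that each DR1 match also holds the half-site. The C/EBP site was searched as TTGCNNAA and the cyclic AMP response element as TGACGTCA. The TATA box was searched as TATAAA. Ucp1 lies at chr8:83290098-83290397 on the plus strand, with 1 half-site. Cox8b lies at chr7:140900397-140900696 on the minus strand, with 1 TATA box. The second of the Cidec windows lies at chr6:113434715-113435014 on the minus strand, with 1 C/EBP match, and the first window of this gene had no match.
Ucp1: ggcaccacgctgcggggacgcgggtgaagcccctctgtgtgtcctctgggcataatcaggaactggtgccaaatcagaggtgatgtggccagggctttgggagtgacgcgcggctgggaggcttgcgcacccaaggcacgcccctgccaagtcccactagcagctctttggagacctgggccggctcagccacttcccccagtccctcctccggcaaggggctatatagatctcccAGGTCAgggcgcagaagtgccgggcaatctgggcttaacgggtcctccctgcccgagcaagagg
Cox8b: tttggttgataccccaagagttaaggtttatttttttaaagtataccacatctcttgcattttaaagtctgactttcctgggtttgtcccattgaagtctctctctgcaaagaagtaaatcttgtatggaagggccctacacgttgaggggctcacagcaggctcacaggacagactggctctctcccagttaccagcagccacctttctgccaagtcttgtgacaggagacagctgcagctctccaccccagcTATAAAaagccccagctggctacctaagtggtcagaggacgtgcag
Cidec: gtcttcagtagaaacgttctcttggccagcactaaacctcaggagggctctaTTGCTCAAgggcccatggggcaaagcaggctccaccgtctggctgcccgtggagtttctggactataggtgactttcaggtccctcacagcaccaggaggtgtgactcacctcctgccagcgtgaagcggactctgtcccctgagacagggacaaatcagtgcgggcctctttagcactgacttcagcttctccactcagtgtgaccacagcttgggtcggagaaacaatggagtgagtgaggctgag
Among all 32851 windows of the same length, the half-site occurred in 16.3%, the TATA box in 13.6%, the C/EBP site in 10.8%, the cyclic AMP response element in 1.79% and the DR1 element in 0.0396%. Of the 19 windows of called genes, 5 held the half-site, 2 the TATA box, 3 the C/EBP site and 0 the other 2 motifs. A match is a run of letters in this window only and was not tested as a binding site.

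Genes of fat cells in general had more called members than any other list. The list of 28 fat cell genes had 23 tested members, of which 6 were higher and 0 lower (0.177% and 0.00768% over all genes), with a median log2 fold change of 0.70 against 0.01 over all genes, and 22 of 23 were above 0. Fabp4, the fatty acid carrier of adipocytes, ran from 10.07 to 12.00 with a median of 11.01 in the high arrays, and from 7.03 to 10.83 with a median of 9.55 in the low arrays. The classes overlapped in 4 of 20 low arrays, and the log2 fold change was 1.82 (SE 0.35, limma adjusted p = 0.0116). The other Fabp4 probe sets had differences of 1.79, 1.31 and 0.85.

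Among the called genes were 3 further lipid droplet proteins, Cidec and Plin4 from the fat cell list and Plin5, which is in none of the lists. Cidec, which makes droplets fuse and grow, ran from 5.31 to 7.55 with a median of 6.27 in the high arrays, and from 1.37 to 5.83 with a median of 4.77 in the low arrays, a log2 fold change of 1.58 (SE 0.30, limma adjusted p = 0.0116). Plin5, a droplet coat protein of oxidative tissues, had a median of 5.67 in the high arrays and 5.04 in the low arrays, and a log2 fold change of 0.78 (SE 0.15, limma adjusted p = 0.0103). Plin4, another coat protein, reached a log2 fold change of 0.89 (SE 0.20, limma adjusted p = 0.0463) and lost its call in 39 of 55 alternatives, single arrays left out included. In each of these 3 genes all high arrays lay above the median of the low arrays, as in 15 of the 23 higher genes. Lying so was part of the rule that named the largest rises, Cidea and Cox8b included, so it is no further result.

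**Figure D2:**
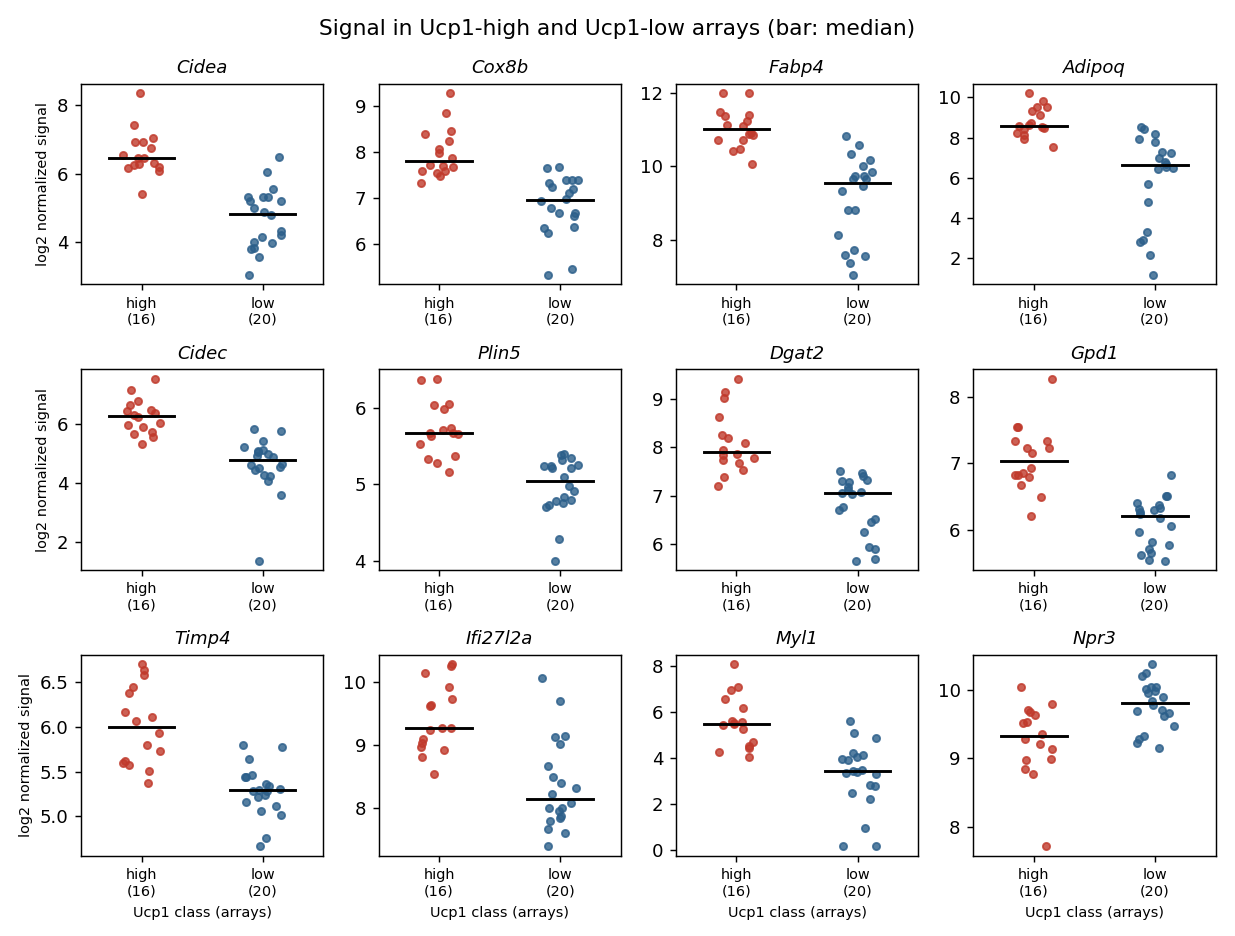
Log2 normalized signal of 12 genes in the 16 Ucp1-high arrays (left in each panel) and the 20 Ucp1-low arrays (right), 1 point per array with the median as a bar. All high arrays lie above the low median in 10 of the genes, which for the largest rises was part of the rule that named them. Gpd1 has 1 high array below the low median and Npr3 has 1 above it. In all 12 genes the points of the classes overlap.

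The fat cell list also holds enzymes of triglyceride metabolism, of which Dgat2 and Gpd1 were called. Dgat1, Pnpla2, Lipe and Lpl, which make or break down triglycerides, had log2 fold changes of 0.36, 0.33, 0.37 and 0.24 and were not called. Dgat2, which catalyses the last step of triglyceride synthesis, ran from 7.2 to 9.41 with a median of 7.90 in the high arrays, and from 5.67 to 7.52 with a median of 7.05 in the low arrays. Its log2 fold change was 1.25 (SE 0.24, limma adjusted p = 0.0103), and a second probe set gave 1.11. Gpd1, which makes the glycerol backbone, had a median of 7.04 in the high arrays and 6.21 in the low arrays, with a log2 fold change of 0.98 (SE 0.16, limma adjusted p = 0.00425), while its dimmer probe sets gave 0.07, 0.62 and -0.62. The last fat cell gene called was Mrap, an accessory protein of melanocortin receptors, at 1.53 (SE 0.34, limma adjusted p = 0.0463), which lost its call in 37 of 54 alternatives.

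The fat hormones and some fat enzymes had large differences on average that missed the threshold. Adipoq, the gene of adiponectin, ran from 7.52 to 10.23 with a median of 8.60 in the high arrays, and from 1.17 to 8.52 with a median of 6.61 in the low arrays. The high arrays were compact and the low arrays spread over more than 7 log2 units, so that 5 of 20 low arrays reached the lowest high array. Adipoq had a log2 fold change of 2.46 (SE 0.63, limma adjusted p = 0.113). Retn, the gene of resistin, had 1.70 (SE 0.48, limma adjusted p = 0.187), with 8 of 20 low arrays at or above the lowest high array. Car3, a carbonic anhydrase abundant in adipocytes, had 1.85 (SE 0.60, limma adjusted p = 0.270), and Pck1, the phosphoenolpyruvate carboxykinase used by fat cells to make glycerol, had 2.25 (SE 0.56, limma adjusted p = 0.0990). Some alternatives did call these genes, Adipoq in 2 and Pck1 in 3, with the smallest limma adjusted p, 0.00339 for both, without treatment and day terms. The low array with the highest Adipoq, Cidea and Pck1 was permethrin 5000 ppm 14 days replicate 2, at 8.52, 6.50 and 6.75, with Ucp1 at 0.92 on the deposited scale. In bulk tissue, fewer cells of a type and less RNA per cell cannot be told apart.

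Genes of the white fat list did not move together, with 5 of the 9 tested above 0. The list shares Retn with the fat cell list and Tcf21 with the list of fibroblasts and matrix. Its median is therefore no measure of white fat alone. Of 15 listed, 9 were tested, of which 0 were higher and 1 was lower (0.177% and 0.00768% over all genes), with a median log2 fold change of 0.06, and Lep, the gene of leptin, stayed below the filter at medians of 0.67 in high and -0.01 in low arrays. The gene that was lower is Npr3, the clearance receptor of natriuretic peptides. Npr3 ran from 7.71 to 10.03 with a median of 9.32 in the high arrays, and from 9.15 to 10.37 with a median of 9.81 in the low arrays. Its level was lower in the high arrays in all 6 groups holding both classes, by 0.48 to 1.32 on the log2 scale in size, and 1 of 16 high arrays lay above the median of the low arrays. Npr3 was called on these same arrays, so its direction within groups was largely fixed by the selection. The log2 fold change was -0.76 (SE 0.15, limma adjusted p = 0.0158), and its 2 other probe sets gave -0.82 and -0.90. The call was lost in 10 of 55 alternatives, among them the fit without the arrays of Gapdh 3' to 5' log2 ratio above 0.7.

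Among the 20 genes of fatty acid and lipid synthesis, all tested, 2 were higher and 0 lower (0.177% and 0.00768% over all genes), and the median log2 fold change was 0.45. Agpat2, an acyltransferase of triglyceride and phospholipid synthesis, had a log2 fold change of 0.80 (SE 0.14, limma adjusted p = 0.00654), with medians of 7.75 in the high and 7.15 in the low arrays. Pcx, pyruvate carboxylase, had 0.71 (SE 0.14, limma adjusted p = 0.0140), with medians of 7.78 and 7.11. Fasn, fatty acid synthase, just missed at 0.72 (SE 0.17, limma adjusted p = 0.0595), and so did Thrsp, a gene induced with lipogenesis, at 1.94 (SE 0.48, limma adjusted p = 0.0990). Scd1, a fatty acid desaturase, had 0.01 (SE 0.12), with medians of 12.60 in the high and 12.29 in the low arrays.

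Few mitochondrial genes passed the test. All 19 tested genes of fatty acid oxidation had log2 fold changes above 0, from 0.03 for Acsf2 to 0.33 for Acadvl, with a median of 0.17, and 2 were higher (0.177% over all genes). Acadvl, the very long chain acyl-CoA dehydrogenase, had medians of 8.64 in the high and 8.37 in the low arrays and a log2 fold change of 0.33 (SE 0.06, limma adjusted p = 0.0116). Acaa2, a thiolase of the last step, had 0.30 (SE 0.06, limma adjusted p = 0.0126), though its dimmest probe set gave 0.06. All 32 tested genes of the respiratory chain and citrate cycle were also above 0, with a median of 0.13. Of these Cox4i1 alone, a core subunit of cytochrome c oxidase, passed (0.177% over all genes were higher), at 0.19 (SE 0.04, limma adjusted p = 0.0463), and its call was lost in 38 of 55 alternatives. Across all 13020 genes, 6802 were above 0, and members of such a list share cells and arrays, so the counts of direction describe these arrays and carry no test.

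**Figure D3:**
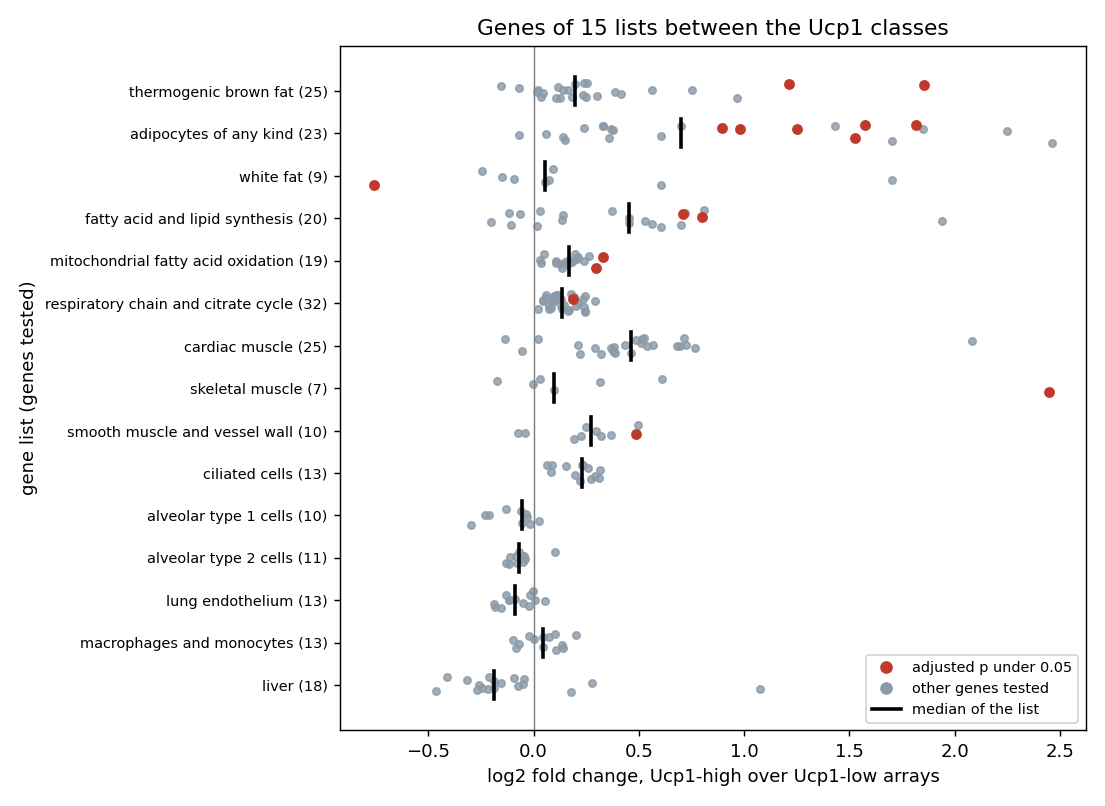
Log2 fold change of Ucp1-high over Ucp1-low arrays for the tested genes of 15 lists (points, red where the limma adjusted p was under 0.05), with the median of each list as a vertical bar. Fat cell genes reach furthest right with a median of 0.70, mitochondrial genes form narrow groups above 0, and alveolar and endothelial genes lie near 0.

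Called genes outside these groups had mixed roles. Timp4, an inhibitor of matrix metalloproteinases, had medians of 6.0 in the high and 5.29 in the low arrays and a log2 fold change of 0.69 (SE 0.12, limma adjusted p = 0.00654), with 0.19 at its second probe set. Ephx2, the soluble epoxide hydrolase, had 0.88 (SE 0.16, limma adjusted p = 0.0103), and Ifi27l2a, an interferon-induced gene, had 1.33 (SE 0.24, limma adjusted p = 0.00654). Adtrp, a hydrolase of branched fatty acid esters, had 1.02 (SE 0.21, limma adjusted p = 0.0159), and its mean of 4.22 in the high arrays carried it past the filter of 3.43, against 3.28 in the low arrays. Chpt1, an enzyme of phosphatidylcholine synthesis, had 0.44 (SE 0.10, limma adjusted p = 0.0378), with other probe sets between -0.03 and 0.42, and lost its call in 24 of 55 alternatives. In Ifi27l2a the highest low array, at 10.07, came close to the highest high array, at 10.29. Ech1, an isomerase of fatty acid oxidation, at 0.33, and Agpat3, an acyltransferase, at 0.22, completed the 24 and fall outside the rule for named genes, so they were named after their values were seen.

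Of the muscle genes, Myl1 and Des were called. Myl1, a myosin light chain of fast skeletal muscle, had the largest log2 fold change of the called genes, 2.45 (SE 0.52, limma adjusted p = 0.0261), at 4.04 to 8.07 with a median of 5.49 in the high arrays and 0.16 to 5.59 with a median of 3.43 in the low arrays. Myl1 passed the filter of 3.43 through the high arrays, with means of 5.60 in the high and 3.22 in the low arrays, so its fold rests on low arrays near background, and it lost its call in 15 of 54 alternatives. Des, the intermediate filament desmin of muscle cells, had 0.49 (SE 0.10, limma adjusted p = 0.0314) and lost its call in 25 of 55 alternatives. Of the 21 skeletal muscle genes, 7 were tested and Myl1 alone was called (0.177% over all genes), with a median of 0.10. The fast-fibre genes Myh4, a myosin heavy chain, and Tnnc2, a troponin, lay below the filter, at high-array medians of 1.74 and -0.53 and low-array medians of 1.63 and -0.14. The mean level of the 7 tested skeletal muscle genes, Myl1 included, was 4.94 ± 0.33 in high arrays (range 4.44 to 5.46) and 4.49 ± 0.37 in low arrays (SD, n = 16 and 20, range 3.70 to 5.18; two-sided permutation test with 100000 resamples, adjusted p = 0.00294 over 6 quantities). This test has no treatment or day term. Within the 6 groups that hold both classes (16 high and 11 low arrays), the difference was 0.44 and positive in 6 of 6 groups (exact permutation of the class within groups, adjusted p = 0.0446 over 7 quantities). Without Myl1 the mean was 4.83 ± 0.28 in high arrays and 4.71 ± 0.22 in low arrays, and the within-group difference of 0.14 did not pass (exact permutation, adjusted p = 0.295).

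None of the 25 tested cardiac muscle genes was called (0.177% and 0.00768% over all genes), but 23 were above 0 with a median of 0.46. Nppa, the atrial natriuretic peptide gene, had the largest value of that list, 2.08 (SE 0.67, limma adjusted p = 0.262). The mean level of the cardiac genes was 7.88 ± 0.42 in high arrays (range 6.96 to 8.67) and 7.27 ± 0.64 in low arrays (SD, n = 16 and 20, range 5.83 to 8.24; permutation test without treatment or day, adjusted p = 0.00543). Within groups the cardiac difference was 0.45, positive in 5 of 6 groups, and did not pass (exact permutation, adjusted p = 0.209). With the cardiac and liver mean levels as covariates, 7 higher genes were called, namely Cox8b, Cidea, Gpd1, Ephx2, Ifi27l2a, Dgat2 and Timp4, and Npr3 was again lower. With the skeletal muscle mean as covariate 0 genes were called by limma (1291 at an unadjusted p of 0.05), and with Myl1 taken out of that mean, 15 were higher and 1 lower. The part of muscle tissue in the result was not tested beyond these fits.

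Signs of array and RNA quality did not pass a test between the classes. The Gapdh 3' to 5' log2 ratio was 0.40 ± 0.53 in high arrays and 0.39 ± 0.49 in low arrays (SD, n = 16 and 20; permutation test, adjusted p = 0.976), and that of Actb was 0.87 ± 0.46 and 0.82 ± 0.33 (permutation test, adjusted p = 0.976). The mean level of liver genes was 6.22 ± 0.84 in high arrays and 6.21 ± 0.76 in low arrays (permutation test, adjusted p = 0.976), while the fitted median of the 18 tested liver genes was -0.19, with 3 above 0 and 0 called. Within groups the differences were 0.24 for the Gapdh ratio and 0.21 for the Actb ratio (exact permutation, adjusted p = 0.295 each) and -0.13 for the liver mean (exact permutation, adjusted p = 0.681). No gene was called in the lists of alveolar, endothelial, ciliated, club or macrophage cells. Median log2 fold changes were -0.06 for alveolar type 1 cells, -0.07 for alveolar type 2 cells and -0.09 for endothelium, with 1 of 10 type 1, 1 of 11 type 2 and 2 of 13 endothelial genes above 0. Ciliated cell genes had 0.23 with 13 of 13 above 0, macrophage and monocyte genes 0.05 with 9 of 13, and club cell genes 0.03 with 7 of 12. Sftpc, the surfactant protein gene that defines alveolar type 2 cells, had medians of 12.74 in the high and 12.77 in the low arrays. Cartilage genes had the highest list median, 0.998, but rest on 3 tested genes with 0 called.

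The genes whose level over all 39 arrays followed Ucp1 most closely by Spearman's rho were Cidea (0.85), Cidec (0.82), Dgat2 (0.81), Gpd1 (0.81), Fabp4 (0.81), Cox8b (0.80), Adipoq (0.78), Pcx (0.76), Pck1 (0.75) and Ephx2 (0.75). These values describe the same arrays that were split by Ucp1 and include the distance between the classes, so they carry no test. The plot of 3 genes against Ucp1 shows that Cidea climbs with Ucp1 over most of the range, whereas Adipoq is already high in some arrays with little Ucp1.

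**Figure D4:**
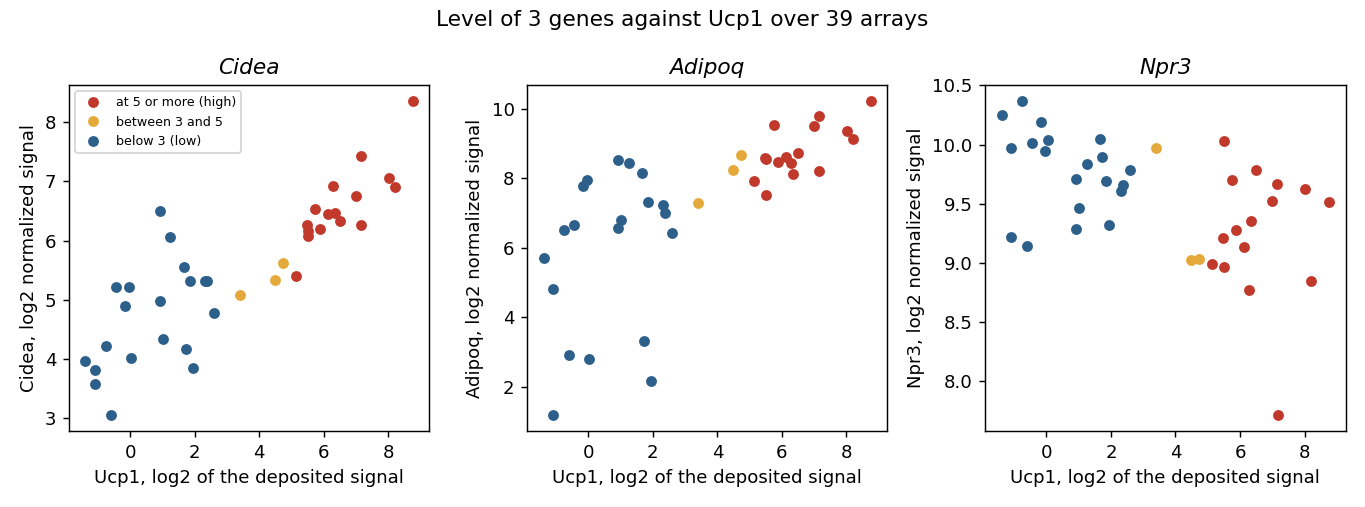
Log2 normalized signal of Cidea, Adipoq and Npr3 against log2 of the deposited Ucp1 signal in the 39 arrays, coloured by Ucp1 class. Cidea reaches 8.37 in the array with the highest Ucp1, Adipoq spreads from 1.17 to 8.52 among the low arrays, and Npr3 is lower on average at high Ucp1.

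Within the 16 high arrays alone, Cidea and Adipoq were higher where Ucp1 was higher, which is given as a description because Ucp1 chose these arrays. For Cidea Pearson's r was 0.82 and Spearman's rho 0.76, and r was 0.73 without the 2 arrays farthest from the median of Ucp1. For Adipoq r was 0.68, rho 0.57 and r without those arrays 0.55. With the means of the 6 groups removed, which leaves 10 of 16 degrees of freedom, r was 0.79 for Cidea and 0.74 for Adipoq. The mean level of the fat cell list gave r = 0.65 and rho = 0.49, and 0.66 with group means removed. The mean level of the thermogenic list gave r = 0.57 and rho = 0.46, and 0.50 with group means removed. The cardiac mean level gave r = 0.28, and 0.39 with group means removed, and the Gapdh ratio gave r = 0.07, and -0.20 with group means removed.

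No gene passed the test for a class difference that changed with day (limma, 0 of 13020 at an adjusted p of 0.05 and 1758 at an unadjusted p of 0.05). In the 14-day arrays alone, with 4 high arrays, 2 genes were called (0.0154%), Timp4 and Ech1. With treatment as a factor, that fit rests on 2 high and 3 low isoniazid lungs and 2 high and 2 low lungs at permethrin 10000 ppm. Of these 4 high arrays, 2 had Gapdh 3' to 5' log2 ratios of 1.29 and 1.87. In the 7-day arrays alone, with 12 high and 6 low arrays, 1 gene was called, Cidec. The 24 genes called in all arrays kept their direction in both subsets. The subsets are parts of the arrays on which these genes were called, so this direction was largely fixed by the selection. The median log2 fold change of the fat cell list was 1.09 at 14 days and 0.46 at 7 days. These medians rest on unlike sets of arrays and were not tested against each other.

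The last comparison asked how far the calls for each diet depend on the Ucp1-high arrays. Each diet was set against the controls fed for the same time. The comparisons of 1 day share their controls. With all arrays, limma called 4 genes for isoniazid, 17 for permethrin 5000 ppm and 28 for permethrin 10000 ppm at 14 days, and 6, 12 and 31 at 7 days (0.0307%, 0.131%, 0.215%, 0.0461%, 0.0922% and 0.238% of 13020 genes). None of the 24 genes called between the Ucp1 classes (0.184% of genes tested) was among the genes called in any of the 6 comparisons. Both shares are so small that 0 shared genes lies near the share over all genes. This overlap says nothing of the part of fat in the diet calls. With the Ucp1 signal as a covariate, the counts were 3, 18 and 23 at 14 days and 4, 11 and 30 at 7 days, of which 3, 17, 22, 4, 11 and 29 were shared with the fit without it.

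None of the 23 fat cell genes was called for any diet, where 0.0307% to 0.238% of all genes were called. At 14 days no control lung was high. The median log2 fold change of the 23 fat cell genes at 14 days was 0.51 for isoniazid, 0.42 for permethrin 5000 ppm and 0.91 for permethrin 10000 ppm against control, and 0.18, 0.40 and 0.51 with Ucp1 as covariate. At 7 days it was 0.34, -0.08 and 0.13, and 0.13, -0.14 and 0.00 with the covariate. Most fat cell genes rose with Ucp1 over these same arrays, and Ucp1 was higher on average in each treated group than in its controls. The lower medians with the covariate were thus largely fixed in advance. For Adipoq at permethrin 10000 ppm and 14 days the log2 fold change against control was 3.18 (SE 1.20, limma adjusted p = 0.621), and 1.58 with the covariate. At permethrin 5000 ppm and 14 days, a group without a high array, it was 3.05 (SE 1.13, limma adjusted p = 0.809), and 2.85 with the covariate. Neither passed the test.

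**Figure D5:**
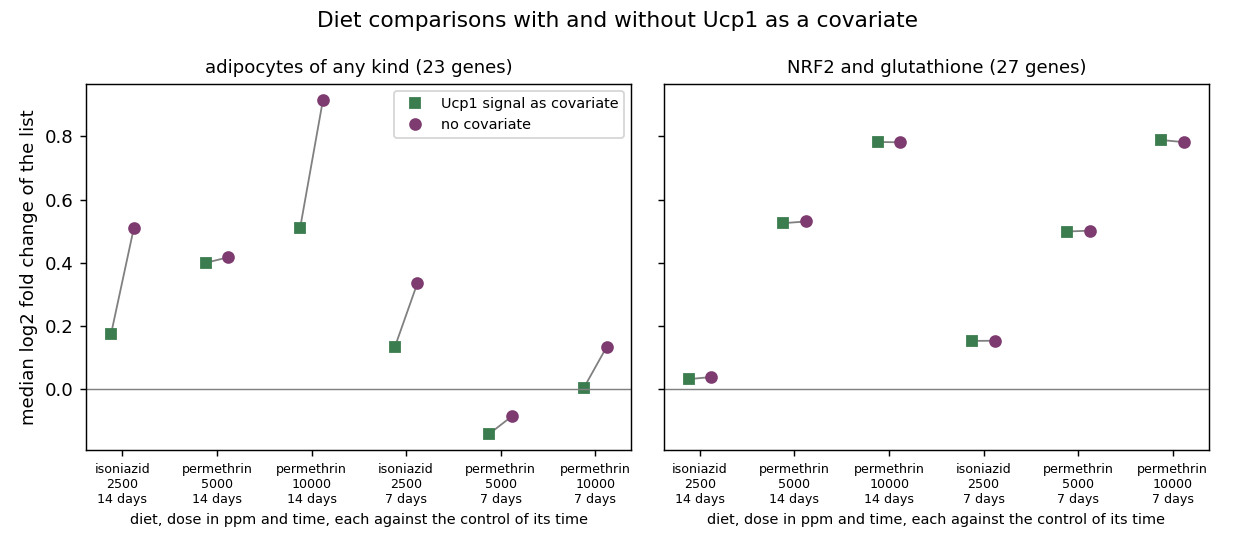
Median log2 fold change of 23 fat cell genes (left) and 27 NRF2 and glutathione genes (right) in the 6 diet comparisons, with the Ucp1 signal as covariate (squares) and without it (circles). Fat cell medians are lower with the covariate in all 6 comparisons, furthest apart at permethrin 10000 ppm and 14 days (0.51 with it, 0.91 without it). Most fat cell genes rose with Ucp1 over these same arrays, so this drop was largely fixed in advance. The antioxidant medians with and without the covariate lie within 0.01 of each other.

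Genes of the antioxidant response were compared in the same way. The 27 tested genes of the NRF2 and glutathione list had a median log2 fold change of 0.02 between the classes with 0 called, where 0.184% of all genes were called. At permethrin 10000 ppm and 14 days 15 of them were higher than in controls, where 0.215% of all genes were called, with a median of 0.78 both with and without the Ucp1 covariate. Because the median of this list differed so little between the classes, a small shift with the covariate was also largely fixed in advance. Leaving out all 16 high arrays left 2 to 5 control lungs a comparison and gave 4 calls for isoniazid, 14 for permethrin 5000 ppm and 14 for permethrin 10000 ppm at 14 days (0.0307%, 0.108% and 0.108%), and 0, 2 and 21 at 7 days (0%, 0.0154% and 0.161%), where 1 to 3 treated lungs remained. Among the calls lost at permethrin 10000 ppm and 14 days, where 2 treated lungs remained, the log2 fold changes against control were 1.19 for Fetub without the high arrays and 1.24 with them, 0.63 and 0.66 for Abcc3, 1.37 and 1.39 for Acox2, 0.73 and 0.89 for Pgd, and 0.32 and 0.31 for Aldh1a1. Fewer lungs also widen the errors, so a lost call does not show a smaller response. Gained at that dose and 7 days, with 3 treated and 2 control lungs, were the liver genes Cyp3a11 (-3.21, limma adjusted p = 0.0194), Ambp (-3.03, limma adjusted p = 0.0476) and Bhmt (-2.71, limma adjusted p = 0.0476). With all arrays their log2 fold changes were -1.67, -1.13 and -0.99. The 2 control lungs left had mean liver levels of 7.35 and 7.56, above the 7.19, 6.71 and 5.28 of the 3 control lungs removed, and the part of this in the gained calls was not tested. Slc6a2, the noradrenaline transporter, was gained for isoniazid (1.69, limma adjusted p = 0.0281) and permethrin 5000 ppm (1.28, limma adjusted p = 0.0416) at 14 days. In the permethrin 5000 ppm comparison no lung was removed, so the fold was 1.28 in both fits, and its calls moved only through the spread estimated over the other groups. For isoniazid at 7 days 1 treated and 2 control lungs remained, so the lone lung was assumed to vary like the other groups, and its 0 calls (405 genes at an unadjusted p of 0.05 in limma) say nothing of the response. Cyp1a1 had 2.24 there without the high arrays and 2.16 with them.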

How the data were processed

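Each of 39 arrays measured 1 lung. Per the submitters' processing notes, the authors computed the deposited signal intensity with MAS5 (version not given in the sources), and the trimmed mean of every array was 100. Array medians ran from 17.4 to 26.2, so log2 values were quantile normalized. Of 45101 probe sets, 34945 named 1 gene by the platform annotation, 932 several and 9160 none, and 64 were controls. For each of 18193 genes the brightest probe set on average was kept, and 13020 with a mean in the upper 60% (log2 signal of 3.43 or more) were tested. Ucp1, at a mean below this, was not tested but set the classes and served as a covariate.

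Tests used limma 3.58.1 in R 4.3.3 (lmFit and eBayes with trend) with treatment and day as factors, two-sided, with Benjamini-Hochberg adjustment over all genes tested and a threshold of 0.05. Quantities per array used permutation tests with 100000 resamples without treatment or day, and exact permutation of the class within groups. A check on simulated data for the comparison of Ucp1 classes held 200 changed genes among 13020. It recovered 69% of genes changed by 0.5 on the log2 scale and 96% of genes changed by 1, with 11 false calls. The real fit called 24 genes and did not call Adipoq at 2.46 (SE 0.63). The simulated shares therefore do not apply to genes of wide spread, and a gene not called may still differ. Named genes were the largest changes among called genes whose high arrays all lay beyond the low median, up to 4 called genes a list, the 10 closest to Ucp1, up to 5 lost or gained per diet comparison, and a set of fat genes. The classes, the 25 gene lists and the rules were chosen with earlier results of these data known. Alternatives varied scaling, filter, covariates, class limits and arrays. Quantile scaling hides a shift common to most genes. The number of arrays limits the precision.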

Additional observations from a re-analysis of the deposited data

Results flagged for a closer look

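In control lungs at 14 days, replicate 2 had a mean level of liver genes of 5.47, against 6.28 to 6.55 in the other 4 animals of its group. This array is Ucp1-low. Such a gap was looked for in 72 combinations of group and measure, and chance gives about 1 in 20.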

How the results depend on the processing

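Against 23 higher and 1 lower gene, the counts of higher genes were 83 without treatment and day terms, 58 with Ucp1 as a continuous covariate (20 of the 23 among them), 7 with cardiac and liver means as covariates, 7 with array weights, 1 in 7-day and 2 in 14-day arrays alone, 0 with the skeletal muscle mean as covariate, 15 with that mean without Myl1, and 5 without the arrays of high Gapdh ratio. The last 3 and the adipocyte covariate below were chosen after seeing the data. Lower genes numbered 0 with median centring, the continuous covariate, single days, the skeletal mean and without high Gapdh ratios, and 3 without treatment and day terms. With the replicate number as a block, 30 were higher and 3 lower. Between groups, the mean correlation was 0.03 over 133 pairs of same-numbered arrays and -0.01 over 532 pairs of differently numbered arrays. These means are too coarse to show whether the numbers pair animals, and this was not tested further. Leaving out single arrays gave 13 to 34 higher and 0 to 3 lower genes. Leaving out single high arrays gave class differences of 0.56 to 0.67 for the cardiac mean, 0.41 to 0.48 for the skeletal mean, -0.06 to 0.11 for the liver mean, -0.09 to 0.06 for the Gapdh ratio, -0.05 to 0.08 for the Actb ratio and -0.70 to -0.36 for the array median (deposited signal). Within the 6 groups that hold both classes, an alternative chosen after seeing the data, the cardiac difference was 0.45 and no longer passed, and the liver difference was -0.13.

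The share at 14 against 7 days was -43.7 percentage points with the arrays between counted as high, and past the threshold. Diet calls without the high arrays were 0 for isoniazid at 7 days, 14 for permethrin 10000 ppm at 14 days and 2 for permethrin 5000 ppm at 7 days. Deposited scaling gave 3 for isoniazid at 7 days, the replicate block gave 7 for isoniazid at 14 days, and the adipocyte mean as covariate gave 17 for permethrin 10000 ppm and 11 for permethrin 5000 ppm at 14 days. Leaving out single arrays gave 1 to 6 (isoniazid, 14 days), 1 to 22 (isoniazid, 7 days), 8 to 22 (permethrin 5000 ppm, 14 days), 8 to 19 (5000 ppm, 7 days), 17 to 48 (10000 ppm, 14 days) and 24 to 33 (10000 ppm, 7 days). Moves past 1.5 times included 48 and 17 without replicates 4 and 2 of permethrin 10000 ppm at 14 days, 22 and 1 without replicates 5 and 4 of isoniazid at 7 days, 1 without replicate 3 of isoniazid or 4 of control at 14 days, 8 without replicate 1 or 4 of permethrin 5000 ppm or 2 of control at 14 days, and 19 (permethrin 5000 ppm, 7 days) without replicate 3 of permethrin 10000 ppm at 14 days. The causes of these changes were not tested. No called result reversed its direction, but the alternatives reuse arrays on which the calls were made. The liver, Gapdh and Actb differences, which were not called, changed sign when single arrays were left out.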
